A study of Homo sapiens with 6 samples.

Results

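The 7 genes HMGA1, HMGA2, LIN28A, LIN28B, IGF2BP1, IGF2BP2 and IGF2BP3 were examined in GLO1-knockout HEK293T cells with and without methylglyoxal (MGO). They were taken from the count tables by exact gene symbol, so 7 of 56832 rows are described, and all 7 symbols were found in each library. Both groups carried the GLO1 knockout in HEK293T, an established human embryonic kidney epithelial line: 3 libraries (numbered 1, 2 and 4) came from untreated cells and 3 (numbered 1, 3 and 4) from cells given 0.2 mM MGO in the medium overnight. GLO1 encodes glyoxalase 1, which starts the removal of MGO, a reactive by-product of glycolysis, and no library of GLO1 wild-type cells was analysed here. Poly(A) RNA was sequenced. The labels do not say whether libraries of a group came from separate cultures or whether the knockout line was 1 clone, so the spread between libraries may be technical. The 7 genes were chosen by name with the log2 fold changes of this same MGO comparison in view, so their changes are given as descriptions, with no p-value.

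These genes are called oncofetal because most are active in embryonic tissue, silent in most adult tissue and active again in many tumours. IGF2BP2 persists in adult tissue. HMGA1 and HMGA2 are small chromatin proteins whose AT-hooks bind the minor groove of AT-rich DNA. LIN28A and LIN28B are RNA-binding proteins that hold precursors of the microRNA let-7 back from maturation, and IGF2BP1, IGF2BP2 and IGF2BP3 bind messenger RNAs, many of them m6A-modified, and stabilise or localise them. Mature let-7 in turn represses mRNAs of all 3 families, so LIN28 and let-7 oppose each other in a switch between embryonic and adult states. Mature microRNAs were not measured by this assay.

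The sequences that tie the families together are the let-7 seed and its matches in the members. RefSeq (GRCh38.p14) lists 9 distinct mature let-7 family microRNAs from the 5′ arm at 12 loci, and all 9 share the same bases 2 to 8, the seed, which is in capitals below.
hsa-let-7a-5p: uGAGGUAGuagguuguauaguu
hsa-let-7b-5p: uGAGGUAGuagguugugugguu
hsa-let-7c-5p: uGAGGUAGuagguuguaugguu
hsa-let-7d-5p: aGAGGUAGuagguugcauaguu
hsa-let-7e-5p: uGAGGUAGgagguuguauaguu
hsa-let-7f-5p: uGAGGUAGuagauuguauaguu
hsa-let-7g-5p: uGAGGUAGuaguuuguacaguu
hsa-let-7i-5p: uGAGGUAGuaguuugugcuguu
hsa-miR-98-5p: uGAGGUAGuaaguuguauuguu

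The letters that pair with this seed are CTACCTC, and a longer match with a following A is CTACCTCA. They were searched on the sense strand of the annotated 3′ UTR of each gene's principal transcript (GENCODE release 29 on GRCh38). HMGA2, LIN28B and IGF2BP1 held 4 matches of 7 bases each, and HMGA1, LIN28A, IGF2BP2 and IGF2BP3 held 1 each. The match had the following A at 1 of 4 places in HMGA2, 2 of 4 in LIN28B and 3 of 4 in IGF2BP1, at the single place in LIN28A, IGF2BP2 and IGF2BP3, and not in HMGA1. The windows of 30 bases below show all matches of HMGA2, which had the largest change, and 1 or 2 of the other genes tested. The base number is that of the first matching base, counted from 1 after the stop codon, and the match is in capitals.
HMGA2, base 21, chr12:65963298-65963327, plus strand: gccaacgttcgatttCTACCTCAgcagcag
HMGA2, base 1256, chr12:65964533-65964562, plus strand: ccccactactcaataCTACCTCtgaatgtt
HMGA2, base 1668, chr12:65964945-65964974, plus strand: ttgacttgcaaagacCTACCTCcagacttc
HMGA2, base 2521, chr12:65965798-65965827, plus strand: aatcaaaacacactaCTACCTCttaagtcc
LIN28B, base 44, chr6:105078812-105078841, plus strand: acccggttgcaaagtCTACCTCAtgcaagt
LIN28B, base 2653, chr6:105081421-105081450, plus strand: gtttacagcaaaaggCTACCTCAtagttga
IGF2BP1, base 1632, chr17:49051061-49051090, plus strand: tgtgtgcgaagtaaaCTACCTCAaggtatg
IGF2BP2, base 1304, chr3:185644213-185644242, minus strand: aacacacagaagaagCTACCTCAggtgttt
IGF2BP3, base 560, chr7:23311788-23311817, minus strand: tgcatttttactcaaCTACCTCAggtattc
HMGA1, base 960, chr6:34245829-34245858, plus strand: tcctctgttcacaaaCTACCTCtggacagt

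A match is a description of letters and not a measured site of repression. The count for HMGA2 depends on the transcript, since the transcript with the longest annotated 3′ UTR (7421 bases against 3003) ends elsewhere and held 0 matches.

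LIN28 proteins are known to grip a GGAG stretch in the loop region of let-7 precursors. Of the 12 let-7 family hairpins in RefSeq, 9 held GGAG after the mature 5′ arm and before or at the start of the 3′ arm. One hairpin with the stretch (in capitals) and one without it are shown.
MIRLET7G, chr3:52268278-52268361, minus strand: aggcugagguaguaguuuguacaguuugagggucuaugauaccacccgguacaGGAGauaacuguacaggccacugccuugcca
MIRLET7B, chr22:46113686-46113768, plus strand: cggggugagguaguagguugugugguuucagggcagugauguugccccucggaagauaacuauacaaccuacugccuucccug

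Library totals were 41002134 to 45910040 counts in untreated cells and 19195920 to 21544749 in MGO, so depth moved with treatment in all libraries. Levels are CPM, counts brought to a common library total with TMM scaling, so a gene's change is measured against the other genes and not per cell. In bulk RNA, fewer cells that express a gene and less RNA per cell cannot be told apart. Across 17415 genes with enough counts to test, edgeR's quasi-likelihood test with Benjamini-Hochberg adjustment (threshold 0.05) called 7282 higher and 7182 lower in MGO. GLO1, the targeted gene, still gave reads in all 6 libraries, at 46.2 to 51.0 CPM in untreated and 134 to 145 CPM in MGO, and whether those reads cover the edited stretch is not known. Markers known from HEK293T cells were all detected and moved with treatment: KRT8 (525 CPM in untreated, 824 in MGO), KRT18 (119 and 190) and VIM (347 and 449) were higher in MGO, and NEFL (165 and 38.1), CDH2 (206 and 94.7), PAX2 (13.2 and 2.78) and NEFM (1.57 and 0.44) were lower. PTPRC, CD3E, ALB, HBB, PECAM1 and INS, markers of other cell types, had at most 8 counts in a library, but COL1A1 was present at 22.8 CPM in untreated and 11.5 in MGO. The part of depth and of these markers in the results was not tested, apart from the thinning of depth given below.

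HMGA2 had by far the largest change of the 6 genes with enough counts to test. Its level was 191, 193 and 191 CPM in untreated libraries 1, 2 and 4 and 30.3, 27.1 and 25.3 CPM in MGO libraries 1, 3 and 4. The lowest untreated library lay 6.29 times above the highest MGO library, so the groups were far apart. The means were 192 ± 1.24 CPM (SD, n = 3) and 27.6 ± 2.56 CPM (SD, n = 3), a log2 fold change of -2.80 (SE 0.0492). Among the 17415 tested genes this was the 171st lowest log2 fold change. HMGA2 stood at the 94.7th percentile of tested genes by untreated CPM and at the 62.4th by MGO CPM. Raw counts went from 8147 to 9249 in untreated to 505 to 549 in MGO.

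HMGA1, the other HMGA gene, was the most abundant of the 7 in counts and changed little in comparison. It stood at 629, 631 and 645 CPM in untreated libraries 1, 2 and 4 and at 513, 531 and 492 CPM in MGO libraries 1, 3 and 4. All MGO values lay under all untreated values, with a gap of only 1.18 times between the nearest libraries. The log2 fold change was -0.31 (SE 0.0353), and HMGA1 stayed above the 98th percentile of tested genes in both groups. Another 5 rows carried HMGA1 pseudogene or HMGA1-like names, with at most 10 counts in a library, and reads from such copies cannot be separated from HMGA1 with certainty.

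LIN28A, which marks pluripotent cells, was practically undetected. Untreated libraries 1, 2 and 4 held 1, 0 and 0 reads of it, and MGO libraries 1, 3 and 4 held 1, 1 and 0. All values are under 3 counts, which correspond to 0.0627 to 0.0705 CPM in untreated and 0.143 to 0.166 CPM in MGO libraries. LIN28A was therefore not tested, and no fold change is given.

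LIN28B was the LIN28 gene of these cells. It stood at 132, 134 and 131 CPM in untreated libraries 1, 2 and 4 and at 93.8, 98.8 and 103 CPM in MGO libraries 1, 3 and 4. The groups did not overlap, and the MGO libraries spread more (98.4 ± 4.51 CPM, SD, n = 3) than the untreated ones (132 ± 1.24 CPM, SD, n = 3). The log2 fold change was -0.42 (SE 0.0398).

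The 3 IGF2BP genes were all expressed and all lower in MGO, by unequal amounts. IGF2BP1, the form best known for binding MYC and ACTB mRNA, stood at 377, 384 and 374 CPM in untreated libraries 1, 2 and 4 and at 298, 308 and 314 CPM in MGO libraries 1, 3 and 4. The nearest libraries of the 2 groups were only 1.19 times apart, and the log2 fold change was -0.31 (SE 0.0353). IGF2BP2, the form that persists in adult tissue and lies at a type 2 diabetes locus, stood at 64.2, 63.5 and 62.9 CPM in untreated libraries 1, 2 and 4 and at 44.3, 49.3 and 52.3 CPM in MGO libraries 1, 3 and 4. Its MGO libraries varied most for their level after those of HMGA2 (coefficient of variation 8.36% against 9.29%), and its log2 fold change was -0.38 (SE 0.0486). IGF2BP3, the form reactivated in many carcinomas, stood at 84.7, 83.7 and 88.4 CPM in untreated libraries 1, 2 and 4 and at 51.8, 51.1 and 53.3 CPM in MGO libraries 1, 3 and 4. The highest MGO library was well under the lowest untreated one, by 1.57 times. The log2 fold change was -0.72 (SE 0.0422), the second largest change of the 6 genes tested.

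Levels of IGF2BP3 carry a limit of place. On GRCh38 its 3′ end overlaps 1521 bases of MALSU1, a mitochondrial ribosome assembly gene on the opposite strand. With strand handling not given in the sources used here, reads from that stretch may belong to either gene. MALSU1 itself was lower in MGO by edgeR (adjusted p = 5.20e-16), with 38.9 CPM in untreated cells and 19.9 in MGO. The part of this overlap in the value of IGF2BP3 was not tested.

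**Figure D1:**
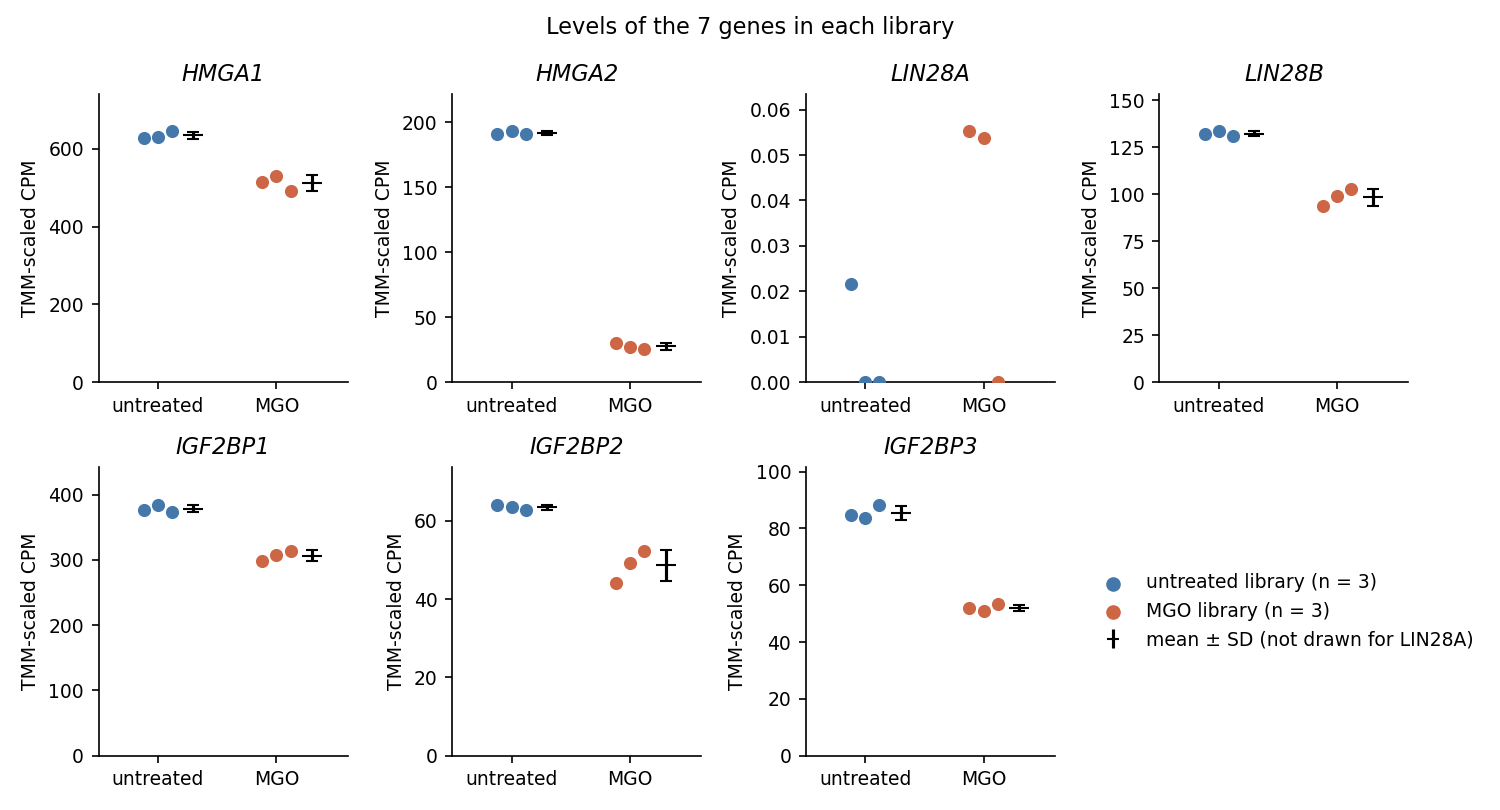
TMM-scaled CPM of the 7 genes in each of 6 libraries (points), with the mean ± SD of 3 libraries per group (bars, not drawn for LIN28A, which had at most 1 count in a library). In every panel but that of LIN28A, all 3 MGO points lie under all 3 untreated points, with the widest gap for HMGA2.

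All 6 tested members passed the threshold as lower in MGO, where 41.2% of all tested genes did so, and 0 passed as higher, where 41.8% did. Members called in either direction were thus 6 of 6, beside 83.1% of tested genes. All 6 also had every MGO library under every untreated library, as did 41.7% of all tested genes, and 0 had every MGO library above, as did 41.8%. Of the 6, HMGA2 alone fell at least 2-fold, and also at least 4-fold, steps that 16.7% and 3.76% of tested genes reached. The median log2 fold change of the 6 was -0.40, beside 0.01 over all tested genes (interquartile range -0.67 to 0.75). HMGA1, LIN28B, IGF2BP1 and IGF2BP2 lay inside that range, between -0.31 and -0.42, with untreated levels 1.24, 1.34, 1.24 and 1.30 times those in MGO. IGF2BP3, at 1.64 times, lay just outside, and HMGA2, at 6.97 times, far outside. These members were chosen with the comparison known, so nothing is read from the counts. With untreated libraries thinned to the mean MGO total, all 6 were still called lower, at log2 fold changes of -2.76 to -0.27.

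**Figure D2:**
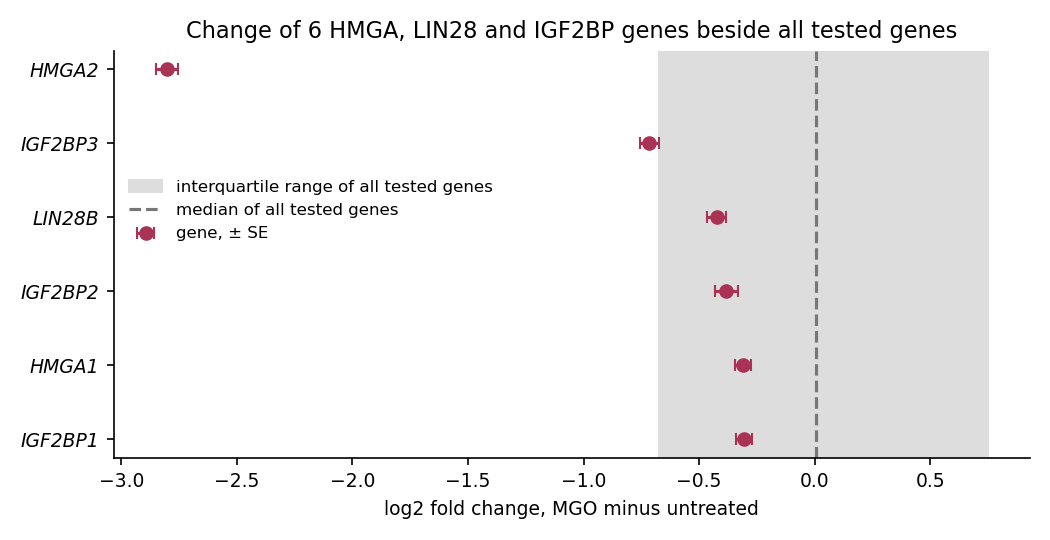
Log2 fold change (MGO minus untreated) of the 6 tested members with its SE, beside the median (dashed line) and the interquartile range (grey) of 17415 tested genes. HMGA2 at -2.80 stands far to the left, IGF2BP3 at -0.72 just outside the grey band and the other 4 inside it.

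Libraries of a group were not alike for each member. Relative to its mean, the spread between libraries (coefficient of variation) was larger in MGO than in untreated cells for HMGA1 (3.83% against 1.43%), HMGA2 (9.29% against 0.644%), LIN28B (4.58% against 0.936%), IGF2BP1 (2.66% against 1.44%) and IGF2BP2 (8.36% against 1.03%). IGF2BP3 was the exception, at 2.16% in MGO and 2.89% in untreated cells. MGO library 1 was the lowest of its group for LIN28B, IGF2BP1 and IGF2BP2 and the highest for HMGA2. MGO library 4 was the highest of its group for LIN28B and all 3 IGF2BP genes and the lowest for both HMGA genes.

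Per kilobase of annotated exons, a scale on which different genes can be set side by side, HMGA1 was highest in untreated cells at 273 ± 3.90 CPM per kilobase (SD, n = 3). IGF2BP1 followed at 41.6 ± 0.598, LIN28B at 22.02 ± 0.206, IGF2BP2 at 13.4 ± 0.138, HMGA2 at 12.5 ± 0.0801 and IGF2BP3 at 10.1 ± 0.290 CPM per kilobase. Each neighbouring pair in this order was separated beyond its spread. In MGO the order was the same except for HMGA2, which dropped to the last place at 1.79 ± 0.166 CPM per kilobase. The place of HMGA2 in untreated cells depends on the length used, because its annotated exons add up to 15403 bases over transcripts with different ends. Per kilobase of the principal transcript (4473 bases) its untreated level was 42.9 CPM per kilobase, close to IGF2BP1 at 45.7, and IGF2BP3 (20.1) then stood above IGF2BP2 (17.2). Within the IGF2BP family, per kilobase of exons, IGF2BP1 made up 63.9% of the summed level in untreated and 67.2% in MGO cells, IGF2BP2 20.6% and 20.5%, and IGF2BP3 15.5% and 12.2%.

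**Figure D3:**
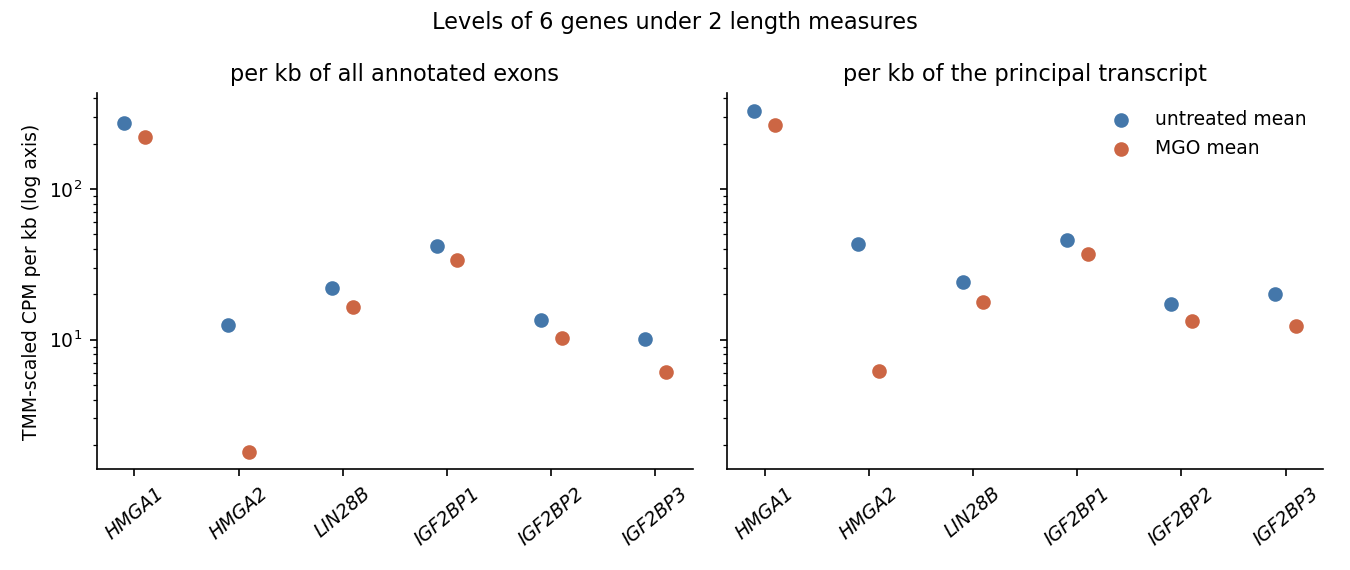
Mean TMM-scaled CPM per kilobase (log axis) of 6 genes in untreated and MGO cells, by the length of all annotated exons (left) and of the principal transcript (right). HMGA1 is highest in both panels, and the untreated point of HMGA2 moves from 12.5 to 42.9 with the length used.

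Genes with let-7 seed matches in general were compared next, leaving out the members. Of the 17415 tested genes 77.0% had an annotated 3′ UTR. Over 13407 of these, 46.0% were called lower and the median log2 fold change was -0.08. With 0 matches (12093 genes) 45.3% were lower (median -0.06), with 1 match (1168 genes) 52.0% (median -0.21), with 2 matches (119 genes) 53.8% (median -0.26) and with 3 or more (27 genes) 51.9% (median -0.17). Of the longer matches of 8 bases, genes with at least 1 (494 genes) were lower in 51.4% (median -0.21). With at least 2 of them (21 genes) 61.9% were lower and 23.8% higher (median -0.54), and their 3′ UTRs had a median of 5124 bases. Genes with matches also had longer 3′ UTRs, with a median of 2631 bases for 1 match and 1007 bases for 0. Among 3′ UTRs of over 1000 and up to 3000 bases the median log2 fold change was -0.22 with a match and -0.19 without, and among those of over 3000 and up to 6000 bases it was -0.30 with and -0.32 without. HMGA2 (-2.80) lay far under each of these medians. LIN28B (-0.42) and IGF2BP1 (-0.31), with as many matches of 7 bases as HMGA2 and more of 8 bases, lay between the median for 3 or more matches of 7 bases and that for at least 2 of 8 bases.

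**Figure D4:**
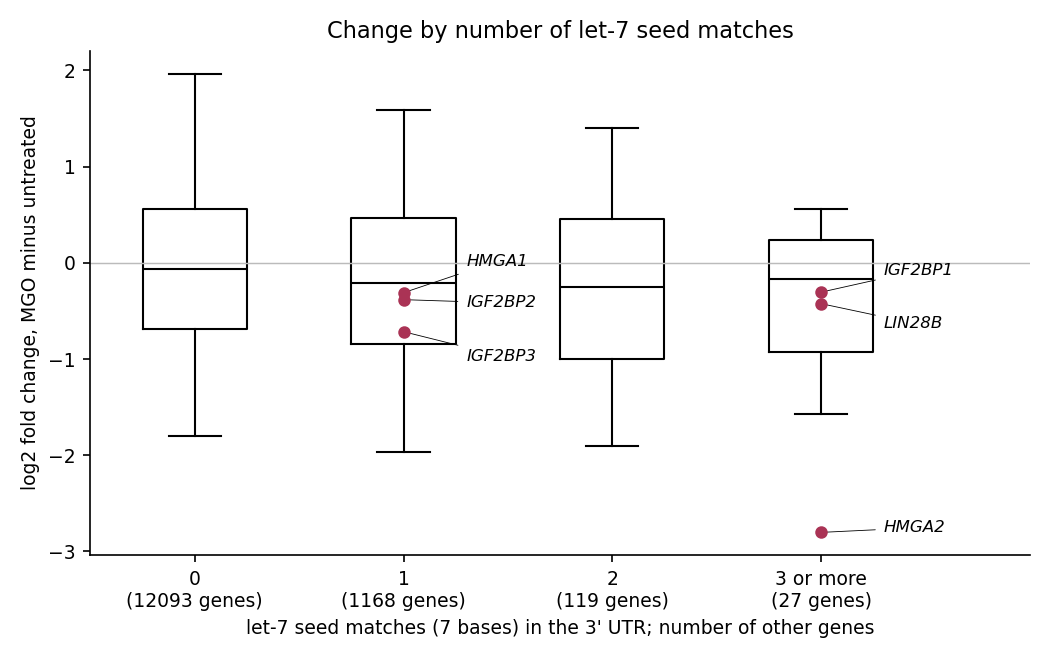
Log2 fold change (MGO minus untreated) by number of let-7 seed matches of 7 bases in the 3′ UTR. Boxes show the interquartile range and median of the other tested genes, whiskers the 5th to 95th percentile, and red points the 6 tested members, of which HMGA2 lies under the whisker of its group.

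Poly(A) libraries are not made to capture mature or precursor microRNAs. Rows named for let-7 precursors and MIR98 held at most 4 counts in a library. Of the host transcripts, 4 were tested. MIRLET7BHG, which hosts let-7b, rose from 0.423 to 1.58 CPM on 9 to 36 counts per library, and HUWE1, a ubiquitin ligase gene that hosts MIR98 and a let-7f copy, rose from 341 ± 6.24 to 510 ± 7.47 CPM (SD, n = 3). MIR99AHG, which hosts let-7c, fell from 3.53 to 2.01 CPM, and WDR82, which hosts let-7g, from 188 to 164 CPM. MIR100HG and MIRLET7DHG had at most 2 counts in a library and were not tested. A host's level does not measure the microRNA within it.

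Of 23 genes that process, tail or degrade let-7 precursors, regulate those steps or act with mature microRNAs, 12 were called higher, 10 lower and 1 not. These counts were near the shares over all tested genes (41.8% higher, 41.2% lower). The median log2 fold change of the 23 genes was 0.16, beside 0.01 over all tested genes. In the cutting steps the nuclear nuclease DROSHA fell from 114 ± 1.88 to 70.2 ± 3.15 CPM (SD, n = 3) while its partner DGCR8 rose from 32.3 ± 0.889 to 83.2 ± 7.85 CPM (SD, n = 3). The cytoplasmic nuclease DICER1, itself a let-7 target, fell from 149 to 79.8 CPM, and its cofactors TARBP2 (log2 fold change 0.32) and PRKRA (0.24) and the exporter XPO5 (0.22) rose slightly. Of the helicases in the nuclear complex, DDX17 fell (log2 fold change -1.50) and DDX5 rose (0.40). KHSRP, which favours let-7 processing, rose by 0.33 on the log2 scale, and HNRNPA1, which opposes it, had a log2 fold change of -0.43.

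LIN28 takes part in the tailing and removal of let-7 precursors. TUT7 (row ZCCHC6), a uridylyltransferase that tails let-7 precursors, rose from 15.5 ± 0.555 to 50.7 ± 3.52 CPM (SD, n = 3, adjusted p = 9.80e-23, edgeR). TUT4 (row ZCCHC11), the uridylyltransferase recruited by LIN28A, was at 59.8 CPM in untreated and 66.6 in MGO cells, a small rise (edgeR adjusted p = 0.0014). DIS3L2, the exonuclease that removes uridylated precursors, rose from 15.9 to 23.4 CPM, and the tailing enzyme TENT2 (row PAPD4) from 43.9 to 74.7 CPM. TRIM25, a cofactor of this uridylation, fell from 94.3 ± 3.86 to 29.5 ± 1.70 CPM (SD, n = 3). Among effectors of mature microRNAs, AGO1 (log2 fold change -0.86), AGO2 (-0.26), TNRC6A (-0.32) and TNRC6B (-0.71) fell, AGO3 (0.99) and AGO4 (0.64) rose, and TNRC6C (-0.13) was not called. TRIM71, a stem-cell ubiquitin ligase, was close to undetected, with 1 to 41 counts per library (log2 fold change -1.09, adjusted p = 0.0142, edgeR), and its groups overlapped.

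Of 41 other tested mRNAs known as let-7 targets, 25 were called lower, 13 higher and 3 not, where 41.2% of all tested genes were called lower, 41.8% higher and 83.1% either way. The median log2 fold change of the list was -0.49, beside 0.01 over all tested genes. Of the 13407 tested genes with an annotated 3′ UTR, members left out, 46.0% were called lower and 39.5% higher (median -0.08). Where that UTR had over 3000 and up to 6000 bases and 0 seed matches, 57.1% were lower and 30.3% higher (median -0.32). The part of 3′ UTR length in the counts of this list was not tested. CCND1, a G1 cyclin, fell from 52.7 ± 2.17 to 14.98 ± 1.11 CPM (SD, n = 3) and GATM, a creatine synthesis enzyme, from 13.5 to 2.23 CPM. CDC25A, a phosphatase that drives the cell cycle, rose from 106 ± 0.576 to 297 ± 4.31 CPM (SD, n = 3). NRAS (log2 fold change 0.05), HIC2 (-0.04) and PLAGL2 (0.12) were not called. MYC and MYCN, singled out after their values were seen, fell from 27.3 to 11.5 CPM and from 5.90 to 0.679 CPM. MYC is known to activate LIN28B and its mRNA is a known IGF2BP client.

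Among other high mobility group genes 8 of 12 fell and 4 rose, where 41.2% of all tested genes fell and 41.8% rose (median log2 fold change -0.59, beside 0.01). HMGN2, a nucleosome-binding protein, fell from 1507 ± 24.2 to 833 ± 9.07 CPM (SD, n = 3), HMGB1 from 534 to 284 CPM, HMGB3 from 286 to 150 CPM and HMGN3 from 52.7 to 22.8 CPM. HMGXB3 rose from 70.1 to 134 CPM. In these cells HMGN3 had the lowest log2 fold change of the 12 (-1.22), against -2.80 for HMGA2 and -0.31 for HMGA1.

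Of 15 genes of the m6A mark, which IGF2BP proteins read, 12 rose, 2 fell and 1 was not called, where 41.8% of all tested genes rose and 41.2% fell. The median log2 fold change was 0.82, beside 0.01 over all tested genes. RBM15, an adaptor of the methyltransferase complex, rose from 31.1 ± 0.979 to 129 ± 2.74 CPM (SD, n = 3) and CBLL1, another subunit, from 56.0 to 205 CPM. The reader genes YTHDF1 (92.8 to 247 CPM), YTHDF2 (165 to 386 CPM) and YTHDC1 (73.5 to 165 CPM) also rose. The 2 that fell were both demethylases, FTO (111 to 69.6 CPM) and ALKBH5 (235 to 157 CPM), named after their values were seen. The methyltransferase subunit METTL14 was not called (log2 fold change -0.13, adjusted p = 0.0532, edgeR).

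Of 15 partners and clients of IGF2BP proteins, 7 were called higher, 7 lower and 1 not, near the shares over all tested genes (41.8% and 41.2%), and the median log2 fold change was 0.10, beside 0.01. With scaling by library size only, 4 in place of 7 were called higher. BTRC, a ubiquitin ligase adaptor whose mRNA IGF2BP1 protects, fell from 52.1 to 18.9 CPM, the mRNA-stabilising protein gene ELAVL1 from 297 to 170 CPM and FMR1 from 146 to 93.4 CPM. SYNCRIP (336 to 561 CPM) and FXR2 (148 to 244 CPM), both RNA-binding proteins, rose. IGF2, the growth factor whose mRNA gave the family its name, was nearly undetected (0.391 and 0.523 CPM) and not called, and H19 was not tested.

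Of 20 other oncofetal and embryonic genes 11 had enough reads to test: 7 fell, 3 rose and 1 was not called, where 41.2% of all tested genes fell and 41.8% rose (median log2 fold change -0.59, beside 0.01). SOX2, a pluripotency and neural progenitor factor, fell from 30.3 ± 1.51 to 5.93 ± 0.532 CPM (SD, n = 3), TPBG, an oncofetal surface protein, from 73.5 to 25.3 CPM and PEG10, an imprinted retrotransposon-derived gene, from 381 to 253 CPM. PLAG1, an oncogenic zinc finger factor downstream of HMGA2 in growth control, fell from 9.80 to 5.20 CPM and MEST from 6.05 to 3.22 CPM. The 3 that rose were GPC3 (log2 fold change 0.13, with overlapping groups), PLAGL1 (0.19) and CDKN1C (0.64, on 31 to 73 counts per library). With scaling by library size only, 1 gene of the list in place of 3 was called higher. POU5F1, NANOG, AFP, DLK1 and SALL4 were not tested for want of reads. Some genes belong to more than one of these lists, and all lists were chosen with earlier results of these data known.

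**Figure D5:**
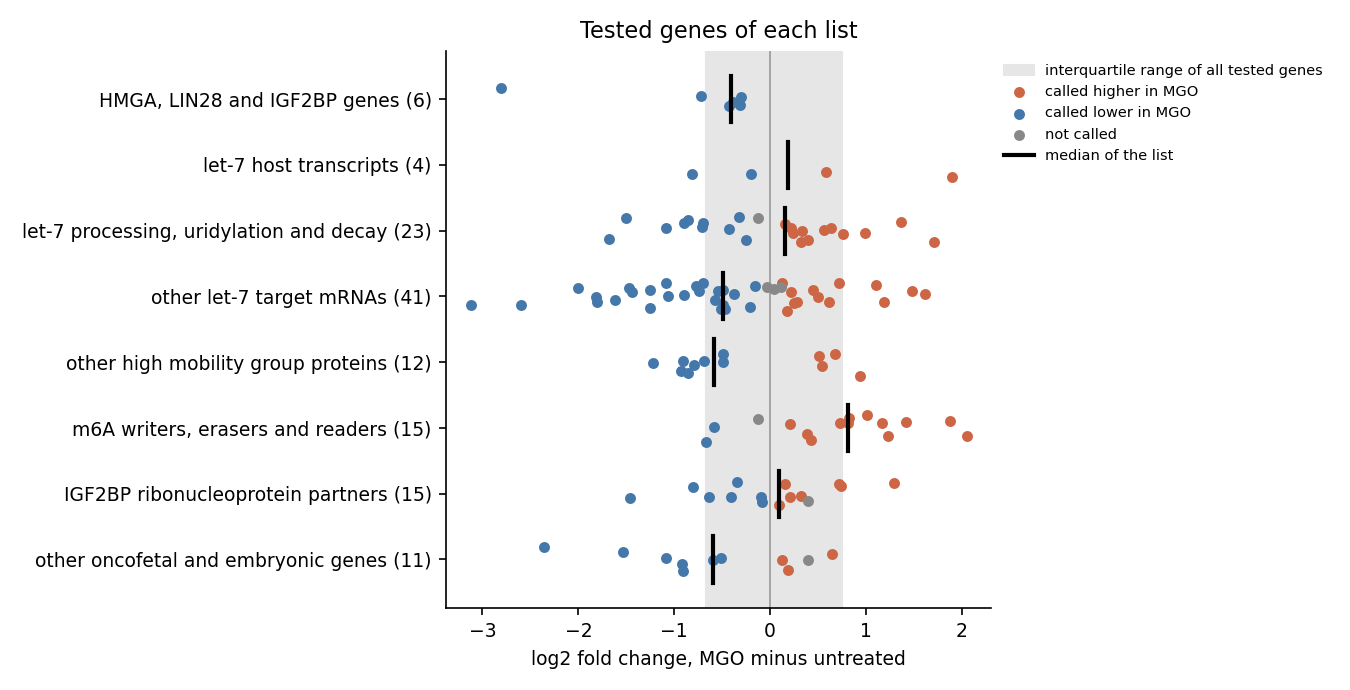
Log2 fold change (MGO minus untreated) of each tested gene by list, coloured by its call, with the list's median (black bar) and the interquartile range of all tested genes (grey). The m6A list lies mostly to the right (median 0.82), and the other let-7 targets and other high mobility group genes mostly to the left (-0.49 and -0.59).

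Neighbours on the chromosome did not all go the way of the member. HMGA2 (GRCh38 chr12:65824131-65966295, plus strand) has MSRB3, a methionine sulfoxide reductase gene, as the nearest counted gene before it, 332701 bases away, and MSRB3 fell from 51.9 to 22.7 CPM (log2 fold change -1.20). LIN28B (chr6:104936616-105083332, plus strand) lies between HACE1, which rose (log2 fold change 0.52), and BVES, which fell (-0.67). IGF2BP2 (chr3:185643739-185825056, minus strand) lies between SENP2 and TRA2B, which both rose (0.33 and 0.29). IGF2BP3 (chr7:23310209-23470467, minus strand) has the splicing factor gene TRA2A, which rose (0.75), on one side and GPNMB, not called (0.23), on the other. HMGA1 (chr6:34236873-34246231, plus strand) is followed by NUDT3, not called (0.14). LIN28A (chr1:26410778-26429722, plus strand) is followed by DHDDS, which rose (0.61), and the nearest counted genes beside IGF2BP1 (chr17:48997412-49055650, plus strand) had too few reads to test.

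RefSeq promoters were at hand for HMGA1, LIN28B, IGF2BP2 and IGF2BP3. Over the 250 bases before the first listed start, G and C made up 74.8% in HMGA1, 73.6% in LIN28B and 81.6% in IGF2BP2 but 56.8% in IGF2BP3, beside a median of 58.0% over 35116 promoters. The number of CpG dinucleotides was 30, 33, 32 and 15, beside a median of 11. On both strands, the GC box letters GGGCGG occurred 5, 2, 6 and 0 times in that order, counting no overlapping matches (in 42.6% of promoters at least once), and the E-box letters CACGTG, which read the same on both strands, 2 times in IGF2BP3 and not in the other 3 (in 6.34%). CCAAT (in 32.0%) and TATAAA (in 10.7%) were in none of these 4 windows. A second listed start was at hand for HMGA1, LIN28B and IGF2BP2, with G and C at 51.2%, 38.4% and 32.8% of its window. Each of these windows held CCAAT 1 time, on either strand. That of LIN28B also held 1 E-box, and that of IGF2BP2 held TATAAA 1 time. The windows of IGF2BP3 and HMGA1 are shown, the tested genes with a window and the largest and smallest change, with these letters in capitals.
IGF2BP3, chr7:23470492-23470741, minus strand: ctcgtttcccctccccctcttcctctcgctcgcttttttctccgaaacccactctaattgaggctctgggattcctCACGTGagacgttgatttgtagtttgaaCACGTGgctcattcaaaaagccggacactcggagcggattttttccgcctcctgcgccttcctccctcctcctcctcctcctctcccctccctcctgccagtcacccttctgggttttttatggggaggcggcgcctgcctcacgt
HMGA1, chr6:34236623-34236872, plus strand: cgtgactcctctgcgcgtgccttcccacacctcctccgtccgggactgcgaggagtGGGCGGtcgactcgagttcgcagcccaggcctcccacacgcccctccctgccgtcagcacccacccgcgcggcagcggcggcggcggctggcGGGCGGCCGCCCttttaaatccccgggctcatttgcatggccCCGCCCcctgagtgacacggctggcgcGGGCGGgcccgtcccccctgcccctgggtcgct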

How the data were processed

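Poly(A) RNA of 6 libraries was read as pairs of 100 bases. The authors deposited raw counts for each gene symbol, without normalization. Per the submitters' processing notes, Trim Galore, Picard, STAR 2.4, HTSeq 0.9.1 and build hg38 were used, with settings, annotation and strand handling not given in the sources used here. Totals ran from 19195920 to 45910040 counts. Reads that carry no molecular identifier may be copies of one molecule. Replicates differed by more than sampling noise (chi-square per degree of freedom 1.88 to 14.7), so each was kept.

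Deposited counts were fitted with edgeR 4.0.16 in R 4.3.3 (filterByExpr, TMM, robust glmQLFit, two-sided glmQLFTest, no covariate, 4 residual degrees of freedom, Benjamini-Hochberg over 17415 genes). A run of the fit on simulated counts changed only a small part of the genes. Here 83.1% of tested genes were called, so that run does not measure the accuracy of scaling or calls in these data. The SE is the log2 fold change over the square root of F. Places and 3′ UTRs are from GENCODE 29 on GRCh38, and microRNAs and promoters from RefSeq. The APPRIS principal transcript was chosen after matches in the longest 3′ UTR had been seen.

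Members, lists and alternatives were chosen with earlier results of these data known. Genes named are the members, GLO1, let-7 processing genes and detected hosts, the 5 called genes with the smallest p and up to 3 not called of each other list, neighbours, and the 5 genes most like HMGA2, LIN28B and IGF2BP1, of which some are not reported here. Alternatives were other scalings and filters, libraries left out, a replicate block, limma voom 3.58.1, DESeq2 1.42.0 and thinned untreated counts.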

Additional observations from a re-analysis of the deposited data

How the results depend on the processing

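All 6 tested members were called lower in MGO under each of 16 alternatives. The log2 fold change of HMGA2 ran from -2.985 to -2.737 and that of IGF2BP1, the least changed, from -0.4878 to -0.2399, with both ends set by the filter on low counts. Over the same 17415 genes the median log2 fold change was 0.01 with TMM and -0.10 with library size only. Between these scalings, changes of members are best read against that median. With no filter the median was 0.20, but over 35722 genes, so it is not the same reference. Of 256 counts of called genes or list members under alternatives, 248 were within 1.5 times the reported count. Among IGF2BP partners 4 in place of 7 rose with library size only, 4 with no filter and 4 with the replicate block. Of other oncofetal genes 1 in place of 3 rose with library size only, 0 with no filter and 1 with both libraries numbered 1 left out. Of other let-7 targets 8 in place of 13 rose with no filter, and 1 host transcript in place of 2 with at least 1 CPM in every library, which leaves fewer genes to test. The cause was not tested for the others. Numbers 1 and 4 occur in both groups, but the labels do not say that they pair cultures. Deviations of same-numbered libraries from their group means correlated at 0.02 and -0.008. Each group mean covers a different set of numbers, so these values cannot decide whether cultures were paired. The replicate block called 6778 genes higher and 6673 lower, in place of 7282 and 7182. Untreated library 2 and MGO library 3 have no same-numbered partner, so its contrast rests on the libraries numbered 1 and 4. LIN28A, with at most 1 count per library, could not be compared at this depth.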

Other observations

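HMGA2, LIN28B and IGF2BP1 were set beside the genes whose log2 CPM, centred on its own mean, followed theirs most closely over the 6 libraries, among 10852 genes that averaged at least 5 CPM. With 2 groups this likeness mostly says that the size of the change was alike. The closest to HMGA2 were the neural POU factor gene POU3F3 (44.1 to 6.38 CPM, root mean square difference 0.0337 on the log2 scale), ZBTB7C (0.042), the cadherin gene CELSR2 (0.0557), the growth factor gene GDF7 (0.0638) and the lipid kinase gene PIK3C2B (0.0693). Among the closest to LIN28B were SRPRA (0.0147), SIN3A (0.0176), RPRD1A (0.0207) and TARS2 (0.0221), and the closest to IGF2BP1 were ATG2B (0.0171), TUBGCP3 (0.0175), VPS4A (0.0184), USP14 (0.0186) and H2AFX (0.0188). Among the members themselves, LIN28B and IGF2BP2 were the closest pair (0.0388) and HMGA2 was at least 1.05 from each of the others tested.

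Apart from the members, 2 of the genes with the most let-7 seed matches, both textbook targets, had large changes: NR6A1, an orphan nuclear receptor with 5 matches (log2 fold change -1.47), and IGDCC3 with 4 (-2.01). HEMK1, with 5, had a log2 fold change of 0.25. These 3 were chosen after their values were seen.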
